A study of Mus musculus with 8 samples.

Results

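A group of 8 genes for channel subunits that carry or tune depolarizing currents of the heart were followed across 3 genotypes of mouse heart. They were taken by symbol from the deposited count table: the sodium channel beta subunit Scn4b, the calcium channel genes Cacna1c, Cacna1g, Cacna1h, Cacna2d1 and Cacnb2, and the pacemaker channel genes Hcn2 and Hcn4. All 8 of the 8 symbols were among the 24516 genes of the table, and all 8 passed the filter on low counts, as did 15075 genes in all. The samples were whole hearts of mice of 1 litter at postnatal day 40. Of these, 2 were wild type (WT), 3 were heterozygous (HET) and 3 homozygous (HOMO) for a CRISPR/Cas9 deletion of a conserved enhancer of Actn2, which encodes the Z-disc protein alpha-actinin 2. The labels name no strain, founder line or tissue restriction of the deletion. They do not say beyond the shared litter whether each library is another animal, so p-values measure the spread between these libraries, which may be technical.

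Cardiac muscle cells depolarize when voltage-gated sodium channels open and then hold the plateau of the action potential with L-type calcium current, whose pore is the alpha-1C subunit encoded by Cacna1c. That pore works in a complex with a cytosolic beta subunit (Cacnb2 is the main cardiac one), which brings the pore to the surface and shifts its gating, and with an extracellular alpha-2-delta subunit (Cacna2d1), which raises its surface density and binds gabapentin. T-type calcium channels, whose pores are encoded by Cacna1g and Cacna1h, open at more negative voltages; they are prominent in the fetal heart and, in the adult, in the sinoatrial node and conduction system. The hyperpolarization-activated channels Hcn2 and Hcn4 carry the pacemaker current, with Hcn4 as the main form of the node and Hcn2 as the main form of working myocardium. Scn4b is a single-pass beta subunit that associates with the cardiac sodium channel pore and alters its inactivation.

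Libraries held 22230090 to 55902737 counts. WT 2 stood apart from the rest, with a correlation of 0.952 with WT 1 across genes (log2 scale) and of 0.927 to 0.935 with the deletion libraries, while pairs of deletion libraries reached 0.969 to 0.982. WT 1 correlated at 0.957 to 0.966 with the deletion libraries, so it was nearer to each of them than to WT 2. Where the call of a named member or related gene was lost without WT 2, the fold change or adjusted p without it is given. For the markers of cell types no values without WT 2 are given. Actn2 itself was at 2187 and 2703 CPM (counts scaled to a common library size of 1000000) in the WT hearts, 1546 to 1693 in HET and 1611 to 2115 in HOMO hearts. By edgeR's test its log2 fold change was -0.59 in HET hearts, which passed (adjusted p = 0.0193). In HOMO hearts it was -0.41 and did not pass (adjusted p = 0.0771). The deleted enhancer is not transcribed into a counted gene, so the counts do not check the genotype labels directly. High Xist in WT 2, HET 2, HET 3 and HOMO 2 marked these as female, so every genotype had both sexes. The 7 markers of ventricular muscle (Myl2, Myl3, Tnni3, Tnnt2, Myh6, Actc1 and Tnnc1) were high in all 8 libraries. They summed to 75697 and 88958 CPM in WT, 55689 to 60626 CPM in HET and 56010 to 64960 CPM in HOMO hearts, without overlap with WT. No share over other sums was computed. Myh6, the largest part of the sum (32397 and 31404 CPM in WT), was called in neither genotype. Actc1 overlapped WT in both genotypes and was not called. Of the 7, 4 fell in HET, 3 fell in HOMO and 0 rose, and after a correction for gene properties described with Cacna2d1 0 passed. Their part in the channel values was not tested.

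Cacna2d1 and Hcn4 were higher in both deletion genotypes than in WT, and Cacna1h was lower in HET hearts. In HOMO hearts 2 of the 8 rose and 0 fell; over all genes 15.3% rose and 12.4% fell. In HET hearts 2 rose and 1 fell, against 15.2% and 12.8% of all genes. The members' shares are near those backgrounds, so the counts say nothing particular about channels as a group. The median log2 fold change of the 8 was 0.17 in HOMO and 0.04 in HET hearts, beside -0.03 in each over all 15075 genes. A call is an adjusted p under 0.05 (Benjamini-Hochberg, over all genes tested) in the quasi-likelihood F test of edgeR, and levels are CPM after TMM scaling, which removes differences in library size and composition. Both deletion genotypes were set against the same 2 WT libraries, so the 2 comparisons are not independent.

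**Figure D1:**
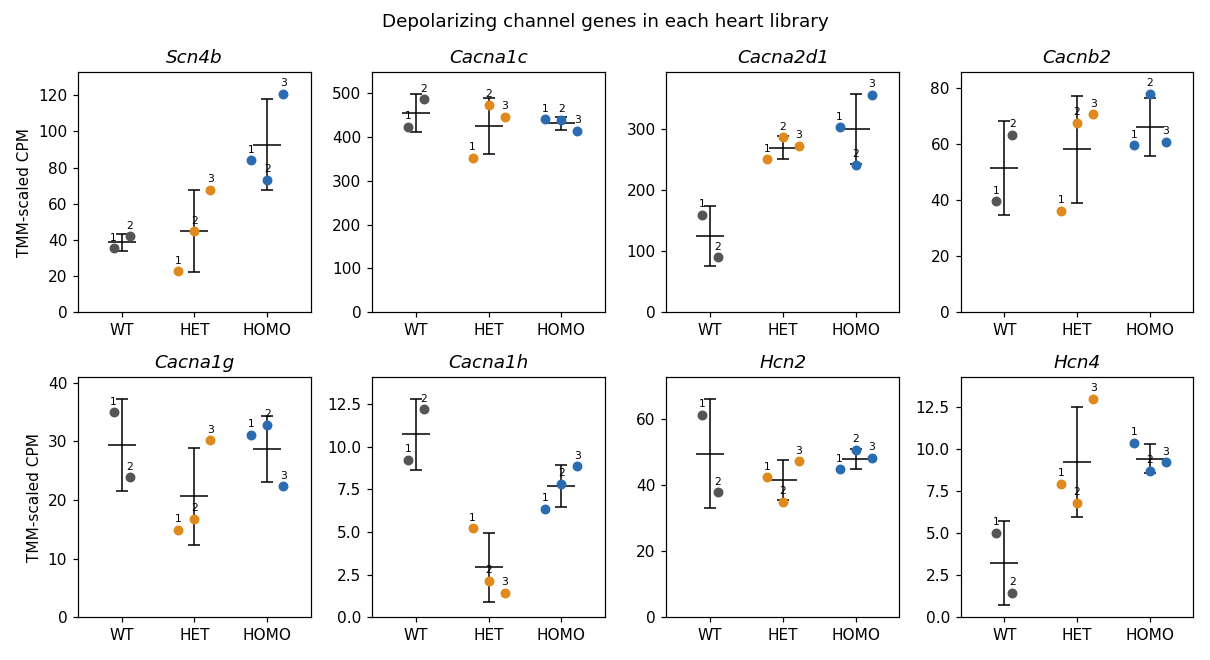
Level of each of the 8 channel genes (TMM-scaled CPM, y axis from 0) in every library, by genotype (WT, HET, HOMO; number beside a point: replicate). Horizontal marks are means and bars are 1 SD (n = 2, 3 and 3); the deletion libraries lie above both WT libraries for Cacna2d1 and Hcn4 and below both for Cacna1h.

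The promoters of Cacna2d1 and Hcn4, the members called in both deletion genotypes, are shown beside that of Hcn2, the other pacemaker subunit, which was not called. The sequences are the 250 bases before the RefSeq start (GRCm38.p6), all on the plus strand. Capitals mark the GC box, searched as GGGCGG on both strands (read as CCGCCC on the other), with overlapping matches counted.
Cacna2d1, chr5:15934441-15934690: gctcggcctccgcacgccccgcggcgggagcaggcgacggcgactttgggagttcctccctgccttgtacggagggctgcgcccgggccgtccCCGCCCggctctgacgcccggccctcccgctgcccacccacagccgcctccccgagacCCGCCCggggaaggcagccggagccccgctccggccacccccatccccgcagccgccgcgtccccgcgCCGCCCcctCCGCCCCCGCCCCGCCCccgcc
Hcn4, chr9:58822699-58822948: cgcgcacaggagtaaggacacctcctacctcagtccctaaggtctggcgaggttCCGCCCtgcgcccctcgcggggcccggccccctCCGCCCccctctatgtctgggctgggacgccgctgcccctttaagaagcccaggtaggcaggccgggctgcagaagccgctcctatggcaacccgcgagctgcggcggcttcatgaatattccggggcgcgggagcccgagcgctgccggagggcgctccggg
Hcn2, chr10:79716384-79716633: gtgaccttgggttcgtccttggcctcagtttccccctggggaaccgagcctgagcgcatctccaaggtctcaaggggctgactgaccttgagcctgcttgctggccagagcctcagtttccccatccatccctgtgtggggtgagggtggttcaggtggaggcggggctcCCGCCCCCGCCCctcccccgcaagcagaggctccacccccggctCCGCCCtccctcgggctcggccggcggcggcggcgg

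The Cacna2d1 window held 6 GC boxes, the Hcn4 window 2 and the Hcn2 window 3; of 32851 promoter windows of the same length, 32.7% held at least 1. All of these windows were rich in G and C (82.4%, 71.2% and 70.4%, beside a median of 52.4% over all windows), and none held TATAAA (in 12.4% of windows), CCAAT (33.8%), AGATAA (9.99%), CATTCC (12.6%) or CACGTG (6.02%) on either strand. None overlapped an annotated exon. The matches describe the letters only. RefSeq promoter windows were found for 6 of the 8 members, and Cacna1g and Cacna1h were the others.

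Cacna2d1 (ENSMUSG00000040118.15, chromosome 5, 15934691 to 16374511, plus strand, mm10) was at 159.5 and 89.4 CPM in the WT hearts, 249.7, 286.2 and 271.9 CPM in the HET hearts, and 302.4, 240.5 and 355.8 CPM in the HOMO hearts. Each of the 6 deletion libraries lay above both WT libraries, as was the case for 22.1% of all tested genes. The WT mean was 124 ± 49.6 CPM (SD, n = 2). In HET hearts the mean was 269 ± 18.4 CPM (SD, n = 3), a 2.16-fold rise (1.11 ± 0.24 SE in log2 units, with an adjusted p of 0.00771). In HOMO hearts it was 300 ± 57.7 CPM (SD, n = 3), a 2.41-fold rise (1.27 ± 0.24 SE, adjusted p = 0.00467). With any 1 library left out the rise kept its call in both genotypes, at log2 values of 0.94 to 1.75 in HOMO and 0.79 to 1.60 in HET hearts, the lowest being those without WT 2. A correction for gene properties was also run, which removes from each library its dependence on GC content, on the length of the transcript and on that of its 3' UTR. With it the call was lost (0.57, adjusted p = 0.0870 in HOMO; 0.39, adjusted p = 0.230 in HET). The transcript is long (7.44 kb) and, at 40.7% GC, the least GC-rich of the 8.

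Cacna1c, the L-type pore (ENSMUSG00000051331.15, chromosome 6, 118587240 to 119196418, minus strand), was the most abundant member in CPM in every library. Its level was 423.8 and 486.2 CPM in WT, 352.6, 473.9 and 447.0 CPM in HET, and 440.9, 439.3 and 414.3 CPM in HOMO hearts. The 3 genotypes overlapped. The log2 fold change was -0.08 in HOMO (95% interval -0.41 to 0.26, adjusted p = 0.744) and -0.10 in HET hearts (-0.43 to 0.23, adjusted p = 0.659). After the correction Cacna1c was lower in both, at -0.61 (adjusted p = 0.0216) and -0.64 (adjusted p = 0.0190); its annotated transcript, at 13.2 kb, is the longest of the 8. With the correction and without WT 2 neither was called (-0.38 and -0.40, adjusted p = 0.155 and 0.132). The uncorrected differences were above 0 without WT 2 in both genotypes and without HET 1 in HET hearts.

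Within a library, the ratio of one subunit to another does not depend on scaling. Per kb of transcript, Cacna2d1 stood at 0.666 and 0.326 of Cacna1c in the WT hearts. The ratio was 1.25, 1.07 and 1.08 in the HET and 1.21, 0.969 and 1.52 in the HOMO hearts. Every deletion library thus had more Cacna2d1 relative to the pore than either WT library. The ratio was not tested, no share over other gene pairs was computed, and it is not corrected for gene properties. Cacnb2 to Cacna1c was 0.311 and 0.434 in WT, 0.342 to 0.527 in HET and 0.450 to 0.592 in HOMO hearts, so HOMO libraries lay above WT and HET libraries overlapped it. That ratio was not tested either, and no share over other gene pairs was computed for it.

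Cacnb2 (ENSMUSG00000057914.15, chromosome 2, 14603088 to 14987908, plus strand) was at 39.6 and 63.2 CPM in WT, 36.1, 67.5 and 70.6 CPM in HET, and 59.5, 77.9 and 60.9 CPM in HOMO hearts. WT 1 and HET 1, both male, were the lowest. The genotypes overlapped, and neither difference passed (0.36 in HOMO, 95% interval -0.30 to 1.02, adjusted p = 0.392; 0.18 in HET, -0.48 to 0.83, adjusted p = 0.691). With a term for sex, added after the data were seen, the HOMO value was 0.50 and passed (adjusted p = 0.0278), while the HET value was 0.05 (adjusted p = 0.821). The exons of Cacnb2 share 618, 239 and 111 bases with 3 noncoding genes on the opposite strand, and the strand setting of the counting is not given in the sources used here.

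Hcn4 (ENSMUSG00000032338.9, chromosome 9, 58823412 to 58863175, plus strand) was scarce in WT hearts, at 5.01 and 1.46 CPM, from 130 and 42 counts. It was at 7.94, 6.79 and 12.96 CPM in the HET and 10.4, 8.71 and 9.21 CPM in the HOMO hearts. The 6 deletion libraries all lay above both WT libraries, as for 22.1% of all tested genes, and HOMO libraries were close together. Mean levels were 3.23 ± 2.52 CPM in WT (SD, n = 2), 9.23 ± 3.28 CPM in HET and 9.42 ± 0.840 CPM in HOMO hearts (SD, n = 3 each). Hcn4 rose 2.87-fold in HET (1.52 ± 0.46 SE in log2 units, adjusted p = 0.0349) and 2.92-fold in HOMO hearts (1.55 ± 0.46 SE, adjusted p = 0.0325). After the correction the rises were 1.59 and 1.55 and passed (adjusted p = 0.0429 and 0.0436). The calls were close to the threshold and rested on single libraries. Without WT 2 the values were 0.91 and 0.94 (adjusted p = 0.112 and 0.107), and without WT 1 they were 2.67 and 2.70 (adjusted p = 0.000571 and 0.000527). The HOMO call was also lost without HOMO 1, 2 or 3 (adjusted p = 0.0781, 0.0586 and 0.0713), and the HET call without HET 3 (1.198, adjusted p = 0.0978), without HOMO 1, 2 or 3 (adjusted p = 0.0515, 0.0501 and 0.0550), and in a fit of the 2 genotypes alone (adjusted p = 0.0802).

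Hcn4 is a marker of the sinoatrial node, so markers of nodal and conduction cells were read beside it. Of 12 in the table, among them Shox2, Isl1, Tbx3, Tbx18, Gjd3, Gjc1, Gja5 and Cntn2, 9 were tested. By edgeR's test 0 passed in either genotype, 3 were lower and 0 higher at an unadjusted p under 0.05 in each, and DESeq2 called 2 lower in HOMO and 1 in HET hearts. Their summed level was 227 and 283 CPM in WT, 148 to 238 CPM in HET and 176 to 205 CPM in HOMO hearts. The nodal factors on the list ranged widely in level. Isl1 was at 0 counts in all 6 deletion libraries and at 0.15 and 0.03 CPM in WT, and Shox2 was at 0.28 to 0.67 CPM throughout. Tbx3 was at 26.1 to 53.0 CPM and Tbx18 at 6.55 to 11.2 CPM over the 8 libraries. The node lies in the wall of the right atrium. Of 8 tested markers of atrial muscle, 5 fell and 0 rose in each genotype. After the correction 5 fell in HET and 4 in HOMO hearts, and 0 rose. Sums over all 9 in the table were 377 and 642 CPM in WT, 132 to 459 in HET and 147 to 402 in HOMO hearts. Nppa, which was not called, made up most of the sum in every library (283 and 514 CPM in WT). The 5 that fell were Myl7, Sln, Myl4, Dkk3 and Stard10. Myl7 was at 6.59 and 14.2 CPM in WT and 0.177 to 0.684 CPM in the deletion libraries. Dkk3 was at 24.1 and 27.1 CPM in WT and 2.18 to 4.84 CPM in the deletion libraries. In WT, Sln was at 2.93 and 5.27 CPM and Myl4 at 11.1 and 22.8 CPM, beside 9128 and 19551 CPM for the ventricular marker Myl2. How much atrial tissue each sample held was not tested. How far cell composition contributes to the Hcn4 value was not tested, and in whole hearts fewer cells of a type and less RNA per cell cannot be told apart.

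Hcn2 (ENSMUSG00000020331.9, chromosome 10, 79716634 to 79736108, plus strand) was at 61.1 and 37.7 CPM in WT, 42.3, 34.9 and 47.1 CPM in HET, and 44.7, 50.6 and 48.3 CPM in HOMO hearts. WT 1 was highest and WT 2 near the bottom, so the WT range enclosed all but 1 of the deletion libraries. The log2 fold change was -0.05 in HOMO (95% interval -0.48 to 0.39, adjusted p = 0.888) and -0.25 in HET hearts (-0.69 to 0.18, adjusted p = 0.365). The sign was positive after the correction (0.30 and 0.14) and without WT 1 (0.35 and 0.14).

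The 2 pacemaker subunits were also set against each other within libraries. Per kb of transcript, Hcn2 exceeded Hcn4 by 23.3-fold and 49.6-fold in the WT hearts. The ratio was 10.2, 9.84 and 6.96 in the HET and 8.28, 11.1 and 10.03 in the HOMO hearts. All 6 deletion libraries lay below both WT libraries, and Hcn2 remained the more abundant subunit in every library. The ratio was not tested, no share over other gene pairs was computed, and it contains the Hcn4 values whose calls were lost without WT 2.

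**Figure D2:**
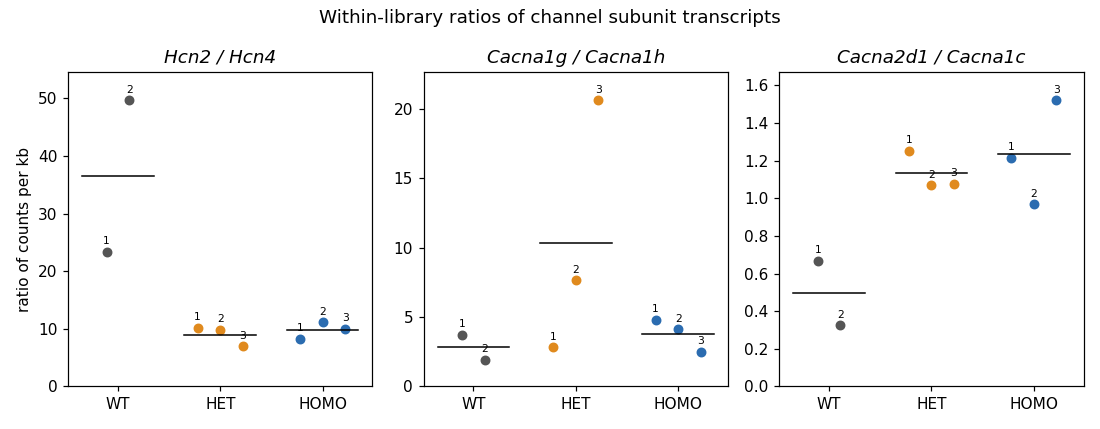
Ratios of counts per kb of transcript within each library (y axes from 0) for Hcn2 to Hcn4, Cacna1g to Cacna1h and Cacna2d1 to Cacna1c, by genotype (number beside a point: replicate; line: mean). Hcn2 to Hcn4 is 23.3 and 49.6 in WT and at most 11.1 in the deletion libraries, and Cacna2d1 to Cacna1c is at most 0.666 in WT and at least 0.969 in the deletion libraries. The ratios were not tested, and no share over other gene pairs was computed.

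Cacna1h, the T-type pore Cav3.2 (ENSMUSG00000024112.16, chromosome 17, 25374285 to 25433783, minus strand), had another pattern. Its level was 9.25 and 12.2 CPM in WT, 5.22, 2.16 and 1.44 CPM in HET, and 6.38, 7.82 and 8.85 CPM in HOMO hearts. The 3 genotypes did not overlap: HET libraries were lowest, HOMO libraries between, and WT libraries highest. HOMO libraries lay above all HET libraries for 6.19% of all tested genes. All 6 deletion libraries lay below both WT libraries, as for 20.7% of all tested genes. Mean levels were 10.7 ± 2.08 CPM in WT (SD, n = 2) and 2.94 ± 2.01 CPM in HET hearts (SD, n = 3), a 3.70-fold fall (-1.89 ± 0.43 SE in log2 units, adjusted p = 0.0103). The HET fall was -1.87 after the correction (adjusted p = 0.0351) and was called with each library left out except WT 2 (-1.65, adjusted p = 0.0864). The HOMO mean was 7.69 ± 1.24 CPM (SD, n = 3), and its difference of -0.48 did not pass (95% interval -1.42 to 0.46, adjusted p = 0.430).

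The difference between HOMO and HET hearts was itself tested for each gene. For Cacna1h it was 1.41 in log2 units (95% interval 0.52 to 2.30), the 22nd smallest of 15075 p-values in that comparison, with an unadjusted p of 0.00544 and an adjusted p of 0.9996. No gene passed in HOMO against HET by edgeR's test (0% of 15075), where 411 genes were under an unadjusted p of 0.05; DESeq2 called 3 genes, none of them a member, and gave Cacna1h an adjusted p of 0.449. The lower level in HET than in HOMO hearts is thus not established over all genes. The HET libraries differed from each other by more than the HOMO libraries did, and without HET 1, the highest, the difference was 2.09 (adjusted p = 0.106).

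Cacna1h is also expressed by vascular smooth muscle, and its values are given beside the markers of that cell type. The 6 smooth muscle markers (Acta2, Myh11, Tagln, Cnn1, Smtn and Lmod1) summed to 737 and 785 CPM in WT, 303 to 428 CPM in HET and 352 to 479 CPM in HOMO hearts, with 5 lower in HET and 4 lower in HOMO hearts and 0 higher. Their part in the Cacna1h values was not tested. Its exons share 158 bases with Tpsg1, a mast cell protease gene on the opposite strand, which had 0 to 8 counts in a library beside 42 to 449 for Cacna1h.

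Cacna1g, the T-type pore Cav3.1 (ENSMUSG00000020866.17, chromosome 11, 94408391 to 94474198, minus strand), was at 34.9 and 23.9 CPM in WT, 14.9, 16.8 and 30.2 CPM in HET, and 31.1, 32.8 and 22.3 CPM in HOMO hearts. HET 1 and HET 2 were the lowest libraries, and HET 3 lay within the WT range. Neither difference passed (-0.03 in HOMO, 95% interval -0.71 to 0.65, adjusted p = 0.953; -0.51 in HET, -1.19 to 0.17, adjusted p = 0.244), and the HET difference passed without HET 3 (-0.88, adjusted p = 0.0323). Cacna1g exceeded Cacna1h per kb in every library, by 1.92-fold and 3.71-fold in WT, 2.47 to 4.78-fold in HOMO hearts, and 2.81, 7.64 and 20.6-fold in HET hearts. The range within HET was wider than the difference between the genotypes.

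Scn4b (ENSMUSG00000046480.6, chromosome 9, 45138395 to 45154152, plus strand) was at 35.4 and 42.0 CPM in WT, 22.6, 44.8 and 67.6 CPM in HET, and 83.9, 73.2 and 120.9 CPM in HOMO hearts. Every HOMO library lay above both WT libraries, as for 27.6% of all tested genes, and above every HET library, as for 6.19%. The HET libraries fell on both sides of WT. The WT mean was 38.7 ± 4.70 CPM (SD, n = 2) and the HOMO mean 92.7 ± 25.0 CPM (SD, n = 3), 2.39-fold as high. That difference of 1.26 ± 0.42 SE in log2 units (95% interval 0.29 to 2.22) missed the threshold (adjusted p = 0.0571). It passed with DESeq2 (adjusted p = 0.00195), in a fit that is not robust (adjusted p = 0.0343), in a fit of the 2 genotypes alone (adjusted p = 0.0112), and without HET 1 or HET 3 (adjusted p = 0.00680 and 0.0195). It did not pass after the correction (1.23, adjusted p = 0.0973), with no filter on low counts (adjusted p = 0.127), without WT 1 or WT 2 (adjusted p = 0.269 and 0.280), without HET 2 (adjusted p = 0.0789), or without HOMO 1, 2 or 3 (adjusted p = 0.0843, 0.0609 and 0.131). In HET hearts the mean was 45.0 ± 22.5 CPM (SD, n = 3) and the difference 0.22 (95% interval -0.72 to 1.15, adjusted p = 0.728). HOMO against HET, it was 1.04 (95% interval 0.21 to 1.87) with an unadjusted p of 0.0206 and an adjusted p of 0.9996. Scn4b and Cacna1h were the 2 members under an unadjusted 0.05 in that comparison, in which 2.73% of all genes were.

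**Figure D3:**
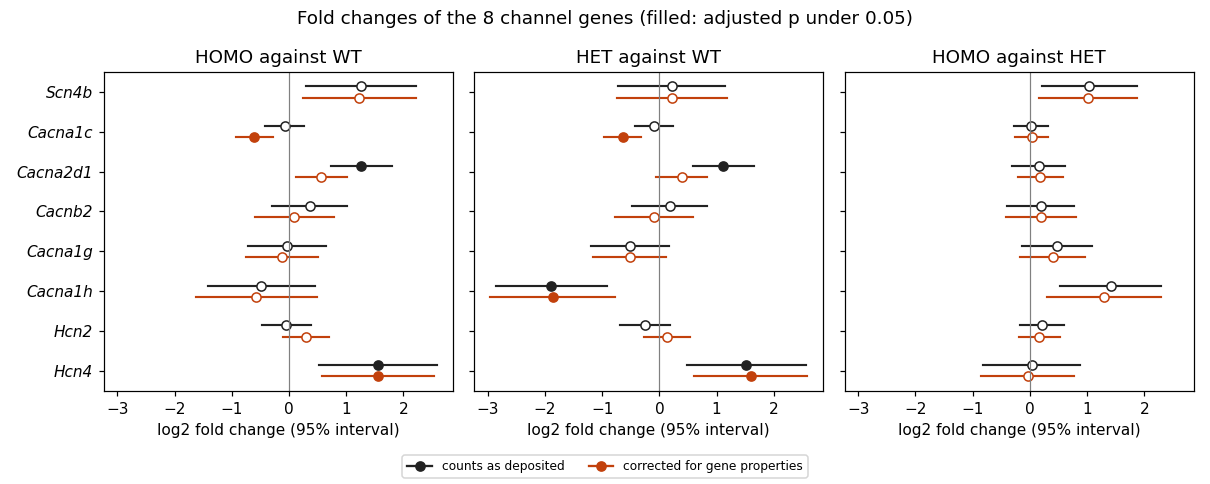
Log2 fold change of the 8 genes in each comparison, from the counts as deposited (black) and after the correction for gene properties (orange). Lines are 95% intervals and filled points passed at an adjusted p under 0.05; the correction moves Cacna2d1 from 1.27 to 0.57 and Cacna1c from -0.08 to -0.61 in HOMO against WT, and leaves Hcn4 at 1.55.

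Between genes, levels were compared per kb of the longest annotated coding transcript. In WT hearts Cacna1c led at 32.2 and 36.9 CPM per kb. Cacna2d1 (12.03 and 21.5), Hcn2 (11.8 and 19.1) and Cacnb2 (10.03 and 16.0 CPM per kb) overlapped each other, and Scn4b (7.10 and 8.44), Cacna1g (2.85 and 4.17), Cacna1h (1.12 and 1.48) and Hcn4 (0.238 and 0.819 CPM per kb) followed without overlap. In the deletion hearts Cacna2d1, at 32.3 to 47.9 CPM per kb, overlapped Cacna1c at 26.8 to 36.0 CPM per kb. The lowest pair changed places. Hcn4, at 1.11 to 2.12 CPM per kb, was above Cacna1h, at 0.175 to 1.08 CPM per kb, in each of the 6 deletion libraries and below it in both WT libraries. This order was not tested, and no share over other gene pairs was computed. It rests on the 2 scarcest members, each with 42 counts in its lowest library. The Hcn4 calls were lost without WT 2, and the Cacna1h difference did not pass in HOMO hearts. With merged exon length in place of transcript length, Cacnb2 moved from the 3rd to the 5th place of the mean over all libraries, and Cacna1c and Cacna2d1 stayed first and second.

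**Figure D4:**
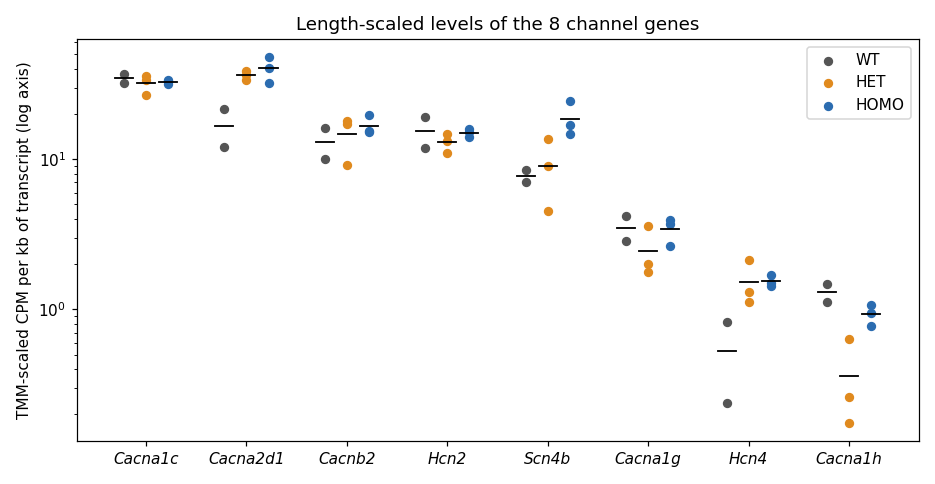
Length-scaled level (TMM-scaled CPM per kb of the longest coding transcript, log axis) of the 8 genes in every library, ordered by the mean over all libraries; black marks are genotype means. Cacna1c is the highest in WT, and Cacna2d1 reaches its level in the deletion libraries. Hcn4 and Cacna1h, the scarcest members, exchange places at the low end, an order that was not tested.

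Counts of related genes are read against the shares of all genes, which were 15.3% higher and 12.4% lower in HOMO and 15.2% higher and 12.8% lower in HET hearts, and after the correction 14.1% in either direction in HOMO and 13.4% in HET. No list was tested as a group. Of 8 tested sodium channel subunits in a list of related genes, 1 rose and 0 fell in HOMO hearts. In HET hearts 0 passed by edgeR's test or by DESeq2, and 1 was higher at an unadjusted p under 0.05. After the correction 0 rose and 1 fell in each genotype, and that gene, named after its values were seen, was Scn7a (-0.74 in HOMO and -0.68 in HET, adjusted p = 0.0105 and 0.0157). Scn4a, the pore of skeletal muscle, was 17.8 ± 0.725 CPM in WT (SD, n = 2) and 34.7 ± 5.28 CPM in HOMO hearts (SD, n = 3; log2 fold change 0.96, adjusted p = 0.0406), a call lost without WT 1 or WT 2 (adjusted p = 0.144 and 0.249) and after the correction (0.82, adjusted p = 0.122). Of 12 tested calcium channel subunits, 1 fell and 0 rose in each genotype. That was Cacnb3, another cytosolic beta subunit, at 8.79 and 14.04 CPM in WT, 6.35 to 7.15 CPM in HET and 5.08 to 6.63 CPM in HOMO hearts (-0.75 and -0.93 in log2 units, adjusted p = 0.0375 and 0.0151). Both Cacnb3 calls were lost without WT 2 (adjusted p = 0.410 and 0.204) and after the correction (adjusted p = 0.354 and 0.120).

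Of 11 tested genes whose products anchor or modulate the sodium channel, 4 rose and 1 fell in each genotype. After the correction 2 rose and 1 fell, and the one that fell, named after its values were seen, was Nedd4l, a ubiquitin ligase (-0.78 in HET and -0.62 in HOMO, adjusted p = 0.00963 and 0.0216). Gpd1l, a glycerol-3-phosphate dehydrogenase-like protein that affects sodium channel trafficking, was at 61.6 and 40.9 CPM in WT, 92.8 to 116 CPM in HET and 91.9 to 112 CPM in HOMO hearts. It rose by 0.99 and 1.03 in log2 units (HET and HOMO, adjusted p = 0.00395 and 0.00358), and kept both calls without WT 2 (0.75 and 0.79) and after the correction (0.85 and 0.88, adjusted p = 0.0112 and 0.00925). Fgf13, an intracellular fibroblast growth factor homolog that binds the channel's carboxy terminus, was at 44.5 and 38.4 CPM in WT, 53.7 to 75.5 CPM in HET and 71.3 to 84.1 CPM in HOMO hearts. It rose by 0.72 and 0.90 (adjusted p = 0.00999 and 0.00400) and was still called after the correction (0.61 and 0.81, adjusted p = 0.0389 and 0.0127). The membrane adaptors Ank2 and Ank3 rose too, by 0.68 and 0.82 and by 0.62 and 0.75, and neither was called after the correction (Ank2 0.14 and 0.28, Ank3 0.12 and 0.23). The gene that fell in HOMO hearts, named after its value was seen, was Cav3, the muscle caveolin (-0.52, adjusted p = 0.0248). Its call was lost without WT 2 (-0.40, adjusted p = 0.148) and after the correction (0.04, adjusted p = 0.881).

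Among 16 tested calcium channel partners, 5 rose and 2 fell in HET and 4 rose and 2 fell in HOMO hearts; after the correction 2 rose and 1 fell, and 3 rose and 3 fell. Prkar2a, a regulatory subunit of protein kinase A, the kinase that raises L-type current under adrenergic drive, was at 52.8 and 30.4 CPM in WT, 142 to 144 CPM in HET and 140 to 145 CPM in HOMO hearts. It rose by 1.78 in each genotype (adjusted p = 0.000336 and 0.000372) and by 1.53 and 1.52 after the correction (adjusted p = 0.000963 and 0.000934). Camk2d, the calmodulin-dependent kinase that facilitates L-type current, rose by 0.69 and 0.83 (adjusted p = 0.0121 and 0.00566), and Prkar1a, another regulatory subunit, by 0.58 and 0.60 (adjusted p = 0.0128 and 0.0107). Rem1, a small G protein that inhibits calcium channels, was at 13.4 and 13.0 CPM in WT, 6.04 to 7.97 CPM in HET and 7.998 to 10.1 CPM in HOMO hearts, and fell in HET hearts (-0.86, adjusted p = 0.0104; -0.56, adjusted p = 0.0587 in HOMO). The calls of Camk2d, Prkar1a and Rem1 were lost after the correction. The other calls, named after their values were seen, were Ahnak (0.59 in HET), Akap7 (0.46 in HET and 0.48 in HOMO), Bin1 (-0.95 and -0.84) and Gem (-1.08 in HOMO). After the correction Gem was still called (-1.13, adjusted p = 0.0263), while Ahnak was at -0.05 (adjusted p = 0.835), Akap7 at 0.17 and 0.23 (adjusted p = 0.427 and 0.264) and Bin1 at -0.51 and -0.42 (adjusted p = 0.214 and 0.294). Without WT 2 the calls of Ahnak (0.46, adjusted p = 0.0636), Bin1 (-0.37 and -0.26, adjusted p = 0.349 and 0.535) and Gem (-0.99, adjusted p = 0.104) were lost, and without WT 1 those of Akap7 (0.42 and 0.43, adjusted p = 0.0592 and 0.0515).

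Of 7 tested pacemaker channel relatives, 1 rose in HOMO hearts. In HET hearts 0 passed by edgeR's test, 1 was higher and 2 were lower at an unadjusted p under 0.05, and DESeq2 called 1 higher and 1 lower. After the correction 1 rose in HOMO and 1 fell in HET hearts. These, named after their values were seen, were Popdc2 (0.53, adjusted p = 0.0346) and Mrvi1 (-0.82, adjusted p = 0.0465). Bves, a cAMP-binding membrane protein whose loss disturbs pacemaking, was at 46.2 and 32.6 CPM in WT and 52.9 to 59.5 CPM in HOMO hearts (0.52, adjusted p = 0.0279), a call lost without WT 2 (0.32, adjusted p = 0.139) and after the correction (0.19, adjusted p = 0.374). Of 12 tested transcription factors of pacemaker and conduction tissue, 3 rose and 0 fell in each genotype. Rest, a repressor of neuronal and fetal genes for which Hcn2, Hcn4 and Cacna1h are known targets in the ventricle, was at 6.67 and 3.60 CPM in WT, 12.8 to 16.0 CPM in HET and 16.9 to 17.7 CPM in HOMO hearts. It rose by 1.47 and 1.75 (adjusted p = 0.00245 and 0.00116), by 1.12 and 1.402 without WT 2 (adjusted p = 0.00592 and 0.00202), and by 1.04 and 1.32 after the correction (adjusted p = 0.0122 and 0.00464). Its part in the values of those 3 genes was not tested. Mef2c and Tbx5, activators of cardiac genes, rose by 0.50 and 0.59 and by 0.64 and 0.59. Without WT 1 Mef2c was not called in HET hearts (0.39), and without WT 2 Tbx5 was not called in either genotype (0.46 and 0.41). After the correction Mef2c was at -0.22 and -0.10. Tbx5 was then still called in HET (0.63, adjusted p = 0.0492) but not in HOMO hearts (0.56, adjusted p = 0.0708). With the correction 2 of the 12 rose in HET and 3 in HOMO hearts, and 0 fell. Those in HOMO hearts besides Rest, named after their values were seen, were Gata4 (0.66, adjusted p = 0.0151) and Irx3 (1.21, adjusted p = 0.0307).

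Genes with the most similar pattern to each member over the 8 libraries were named by Pearson's r of log2 CPM among genes of at least 10 CPM. For Cacna2d1 they were Arhgef17, Ulk1 and Kctd9 (r = 0.997, 0.995 and 0.991), and for Hcn4 they included Lrrc15 and Itpa (0.990 and 0.988). For Cacna1h they were Ttc13, Unkl and Bop1 (0.951, 0.946 and 0.943), for Scn4b Cnksr3, Dusp8 and Chtf8 (0.956, 0.944 and 0.940), and for Cacna1c Naf1, Fam3c and Ippk (0.955, 0.954 and 0.934). Cacnb2 was nearest to Rps6ka2, Adam19 and Plekha5 (0.943, 0.934 and 0.931), Hcn2 to Tmem98, Usp21 and Fam192a (0.944, 0.937 and 0.932), and Cacna1g to Itfg2, Wbp1l and Epb41l1 (0.914, 0.905 and 0.900). No member was among the 3 nearest genes of another. These values are the highest of about 9252 over 8 libraries that share depth, genotype and the separate position of WT 2, and are a description only.

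**Figure D5:**
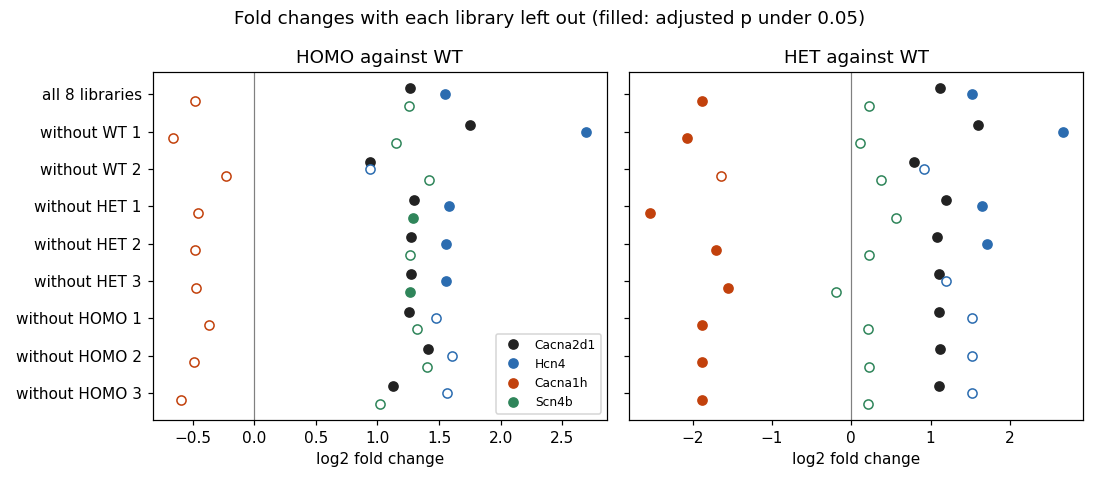
Log2 fold change against WT of Cacna2d1, Hcn4, Cacna1h and Scn4b with all 8 libraries and with each library left out (filled: adjusted p under 0.05). Cacna2d1 is filled in every row of both panels, and without WT 2 Hcn4 falls to 0.94 in HOMO and 0.91 in HET hearts and is open.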

How the data were processed

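The authors deposited a table of raw counts by gene symbol. The tools named in the submitters' processing notes are featureCounts, Subread, HISAT2, DESeq2 and Trimmomatic 0.36, with the build mm10. For annotation, strand and multimapping reads, the setting is not given in the sources used here. The 8 members and all gene lists were chosen with earlier results of these data known, and the list of related channels is not complete.

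Genes were kept by filterByExpr and scaled by TMM, and all 8 libraries entered 1 robust quasi-likelihood fit on genotype (edgeR 4.0.16, R 4.3.3). Tests were two-sided, with Benjamini-Hochberg adjustment over 15075 genes. Precision is set by the number of libraries and by 42 to 25209 counts per member. SEs and 95% intervals come from the fit; with 2 WT libraries the spread rests mostly on the deletion libraries. Members were named whatever their values. Of each related list, up to 4 called genes with the smallest p were named, and for each member the 3 genes with the highest r; a few genes of these lists are not reported here. Positions, lengths and GC content came from GENCODE vM21 (GRCm38), promoters from RefSeq.

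The correction fitted each library's deviation from the mean log2 CPM (prior count 2) by splines (4 df) of GC content, 3' UTR length and transcript length for 13913 genes and used it as an offset. Other alternatives were scaling, filter, DESeq2 1.42.0, a fit that is not robust, the compared groups alone, the replicate number as a block, a sex term and each library left out. The sex term, and the correction joined with leaving out WT 2, were chosen after seeing the data.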

Additional observations from a re-analysis of the deposited data

How the results depend on the processing

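With 2 WT libraries, a fit without WT 1 or WT 2 assumes that the lone sample varies like the other genotypes. Over the 8 members, 3 comparisons and 18 alternatives, 432 fold changes were recomputed, of which 381 kept direction and side of the threshold, 18 lost the call, 10 gained it and 23 changed sign.

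The correction for gene properties left 1962 called genes of 4180 in HOMO against WT and 1861 of 4219 in HET against WT. The count of called members stayed at 2 and 3, but with Cacna1c, lower, in place of Cacna2d1. The correction without WT 2 left 734 and 678 genes, 0 members in either, and 1 gene in HOMO against HET. A fit of only the groups compared called 2668 genes in HET against WT. In HOMO against HET, 2 genes passed with no filter on low counts and 3 with DESeq2. With each library left out, the counts ranged from 2135 (without WT 2) to 5717 in HOMO against WT, where 2564 passed without HOMO 3, from 2359 (without WT 2) to 5634 in HET against WT, and from 0 to 1 in HOMO against HET. Called members ranged from 1 to 3 in HOMO and in HET against WT, with 1 in HOMO without WT 2 or any HOMO library and 1 in HET without WT 2. Apart from the correction, the cause of these changes was not tested.

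Sign changes were all in differences not called with all libraries. In HOMO against WT they were Cacna1c 0.0592 without WT 2 (-0.17 to 0.0592 over the libraries left out), Cacna1g 0.28 without WT 1 and 0.12 without HOMO 3 (-0.25 to 0.28), and Hcn2 0.30 with the correction, 0.00461 with the correction and without WT 2, 0.35 without WT 1 and 0.000823 without HOMO 1 (-0.32 to 0.35). In HET against WT they were Scn4b -0.16 with the replicate block and -0.19 without HET 3 (-0.19 to 0.56), Cacna1c 0.0334 without WT 2 and 0.0445 without HET 1 (-0.19 to 0.0445), Cacnb2 -0.0976 with the correction and -0.12 without WT 1 (-0.12 to 0.59), and Hcn2 0.14 with the correction and 0.14 without WT 1 (-0.53 to 0.14). In HOMO against HET they were -0.0936 for Cacna1c (-0.0936 to 0.11) and -0.0619 for Cacnb2 (-0.0619 to 0.35) without HET 1, and for Hcn4 -0.0676 without HET 1, -0.16 without HET 2 (-0.16 to 0.35), -0.0442 without HOMO 1, -0.0381 with the correction, -0.0389 with the correction and without WT 2, and -0.12 with the sex term.

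Whether the replicate numbers pair the samples could not be decided. Deviations of same-numbered HET and HOMO libraries correlated at 0.18, 0.14 and -0.0228. HET 1 and HET 2 correlated best with the same-numbered HOMO library, and HET 3 with HOMO 2 (0.13). Sex runs along with these values, as HET 1 and HOMO 1 were male and HET 2, HET 3 and HOMO 2 female. The deviations of the 2 WT libraries only mirror each other. With the replicate number as a block, 3328 genes passed in HOMO, 3376 in HET and 0 in HOMO against HET, and of the members Scn4b was called in HOMO hearts (0.97, adjusted p = 0.0276). Depth limits Hcn4 and Cacna1h most, each with 42 counts in its lowest library.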
